A study of Mus musculus with 6 samples.

Results

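The genes described here are 43 proinflammatory cytokines and NF-kB pathway or target genes, listed by symbol under a rule that has no threshold on a measured value. They comprise 22 cytokine ligands and 21 subunits, inhibitors and targets of NF-kB. Of the 43, 42 had a row among the 18697 genes of the count table, and levels of Il17a were not analysed here. The filter on low counts kept 28 of the 42, namely 8 ligands and 20 NF-kB genes. The remaining 14 are given as raw counts.

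NF-kB is a family of transcription factors held in the cytoplasm by IkB proteins. Signals from receptors for tumour necrosis factor, interleukin-1 family cytokines and bacterial products lead to the degradation of IkB, after which the dimers enter the nucleus. There they drive cytokines, adhesion molecules and survival factors, and also the inhibitors that end the response. In inflamed prostate such cytokines are produced by infiltrating leukocytes as well as by epithelium and stroma.

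Both groups were prostates of mice with experimental autoimmune prostatitis, in which an immune response to prostate antigens inflames the gland, so there was no uninflamed control. One group of 3 libraries was given VUF11207, a synthetic agonist of CXCR7 (a chemokine receptor), by intraperitoneal injection at 5 mg per kg per day for 14 days. The other group of 3 libraries received DMSO vehicle by the same route over the same time. The vehicle label carries the same 5 mg per kg per day. No strain or age is given, and the libraries are not tied to animals. The p-values therefore reflect the variation among these 6 samples, part of which may be technical.

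The 6 libraries held between 20308018 and 33368058 counts. One vehicle column had no replicate number that could be tied to a sample and is called the unnumbered vehicle library. Vehicle replicate 2 held 67.0% of its counts in 10 genes, and its effective library size after TMM scaling was 14194319, against 27023454 to 30943239 in the other 5. Levels are given as CPM, which are read counts scaled by the effective library size, so 1 read is worth 0.0705 CPM in vehicle replicate 2 and at most 0.0370 CPM elsewhere. Prostate epithelial markers were present in every library, with all 8 of 8 listed genes tested. Seminal vesicle markers, which belong to a neighbouring gland, ranged in mean log2 level from -3.34 in VUF11207 replicate 2 to 5.45 in vehicle replicate 2, and skeletal muscle markers spanned -4.12 (unnumbered vehicle library) to 3.98 (VUF11207 replicate 1).

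NF-kB dimers bind a sequence of 10 bases known as the kappaB motif. The windows searched ran from 250 bases before to 50 bases after each RefSeq gene start (RefSeq sequences, GRCm38.p6, the build also called mm10). Both strands were searched with the degenerate kappaB consensus, and matches that overlapped were counted once per gene. Windows of 33 of the 43 genes were at hand, and 12 of the 33 held a match. The share was 9 of 16 NF-kB subunits, inhibitors and targets (56.2%) and 3 of 17 ligands (17.6%), beside 12.4% of the 10921 tested genes with a window and 8.46% of all 32851 windows. These shares describe letters in a window and not occupied sites. The genes with a match were Bcl3, Csf1, Il6, Irf1, Lif, Nfkb2, Nfkbia, Nfkbie, Rel, Sod2, Tnfaip2 and Tnfaip3.

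The 5 stretches of 200 bases shown end 3 bases before the gene start and were chosen because they carry the motif in an inhibitor, a subunit, a target and both a measurable and a nearly undetected ligand. Each is written 5′ to 3′ on the strand of the gene, and the capitals mark the match on either strand. The match begins 29 bases before the start of Nfkbia (chr12:55492650-55492849, minus strand), 92 before that of Rel (chr11:23770972-23771171, minus), 13 before that of Irf1 (chr11:53769812-53770011, plus), 154 before that of Csf1 (chr3:107760472-107760671, minus) and 44 before that of Il6 (chr5:30012912-30013111, plus).
Nfkbia: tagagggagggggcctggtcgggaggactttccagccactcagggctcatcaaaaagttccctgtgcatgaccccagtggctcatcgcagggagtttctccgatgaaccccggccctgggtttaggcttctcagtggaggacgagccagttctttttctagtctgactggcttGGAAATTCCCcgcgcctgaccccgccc
Rel: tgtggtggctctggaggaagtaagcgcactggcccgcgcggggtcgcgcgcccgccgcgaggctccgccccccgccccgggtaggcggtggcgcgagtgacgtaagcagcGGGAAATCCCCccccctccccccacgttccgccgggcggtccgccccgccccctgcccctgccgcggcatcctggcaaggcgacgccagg
Irf1: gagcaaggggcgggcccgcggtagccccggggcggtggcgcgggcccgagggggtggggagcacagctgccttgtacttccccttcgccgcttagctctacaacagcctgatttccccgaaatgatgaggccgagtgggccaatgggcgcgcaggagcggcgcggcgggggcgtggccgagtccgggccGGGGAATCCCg
Csf1: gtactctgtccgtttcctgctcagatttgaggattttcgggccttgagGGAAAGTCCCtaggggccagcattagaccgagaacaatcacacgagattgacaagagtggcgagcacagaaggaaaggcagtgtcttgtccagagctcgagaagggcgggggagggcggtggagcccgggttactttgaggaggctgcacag
Il6: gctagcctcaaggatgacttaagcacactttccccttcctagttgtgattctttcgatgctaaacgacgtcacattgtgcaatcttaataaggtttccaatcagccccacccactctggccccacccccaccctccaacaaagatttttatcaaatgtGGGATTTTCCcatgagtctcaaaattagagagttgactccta

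The 13 ligand genes under the count filter had at most 35 reads in any library, and several had none in most libraries. Il6, a fever and acute-phase cytokine, had 1 read in all, in VUF11207 replicate 2. Csf2, the granulocyte and macrophage growth factor, also had 1 read in all, in vehicle replicate 3. A count of 0 allows up to 3 counts, which correspond to 0.211 CPM in vehicle replicate 2 and to between 0.0970 and 0.111 CPM in the other libraries. Intervals and limits of this kind cover counting error only. Low RNA in bulk tissue cannot be told apart from few cells that make it.

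Il1b, the main secreted interleukin-1 of myeloid cells, had 35, 8 and 8 reads with vehicle, against 2, 4 and 11 reads with VUF11207. Values are listed in this order throughout: unnumbered library, then replicates 2 and 3, for vehicle, and replicates 1, 2 and 3 for VUF11207. Tnf, the tumour necrosis factor gene, had 12, 1 and 21 reads with vehicle and 6, 2 and 6 with VUF11207. Scaled by effective size, the ratio of summed reads (VUF11207 over vehicle) was 0.270 for Il1b, with an exact 95% interval for counting error alone from 0.146 to 0.476, and 0.334 for Tnf (0.166 to 0.639). In both genes the groups overlapped, and a single vehicle library carried most of the vehicle reads (the unnumbered one for Il1b, replicate 3 for Tnf).

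Il1a, an interleukin-1 released by damaged epithelium, was the ligand with no overlap between groups. It had 1, 1 and 1 reads with vehicle and 6, 7 and 13 reads with VUF11207. Summed over libraries and scaled by effective size, this is 0.0416 CPM with vehicle and 0.292 CPM with VUF11207, a ratio of 7.03 with an exact 95% interval from 2.15 to 36.3 that covers counting error alone. In an edgeR fit of all 17478 genes with any count, Il1a had a log2 fold change of 2.62, an unadjusted p of 0.0472 and 1 after adjustment. Without single libraries its unadjusted p ran from 0.0701 to 0.153. At an unadjusted p under 0.05 that fit held 1.37% of all genes, and Il1a was the 1 member among them. The share of genes without overlap was not computed for genes under the count filter, so the lack of overlap has no background here.

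Most reads of Ifng, Tnfsf11 and Il12b lay in the unnumbered vehicle library and VUF11207 replicate 2. Ifng, the T and NK cell interferon, had 25, 0 and 0 reads with vehicle and 0, 12 and 0 with VUF11207, a ratio of 0.389 (0.178 to 0.804). This interval covers counting error alone, and the Ifng reads of each group came from 1 library. Tnfsf11, which encodes RANK ligand, had 11, 0 and 1 reads with vehicle and 2, 19 and 4 with VUF11207, so 30 of its 37 reads lay in the same 2 libraries. Il12b, the subunit shared by interleukin-12 and interleukin-23, had 3, 0 and 0 reads with vehicle and 1, 7 and 0 with VUF11207. Il10, an anti-inflammatory cytokine, had 0, 0 and 2 reads with vehicle and 0, 10 and 0 with VUF11207, and so shared only the treated library. The unnumbered vehicle library and VUF11207 replicate 2 had the highest summed level of the 9 T cell marker genes with a row, at 20.06 and 24.96 CPM against 5.64 to 11.1 CPM in the other 4. The part of T cell content in these counts was not tested.

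The other ligands under the filter had few reads in both groups. Il12a, the second subunit of interleukin-12, had 0, 1 and 8 reads with vehicle and 2, 0 and 6 with VUF11207. Osm, which encodes oncostatin M of the interleukin-6 family, had 0, 0 and 4 against 1, 7 and 0 reads. Its relatives Il11 and Lif had 0, 5 and 15 against 5, 2 and 17 reads, and 0, 1 and 0 against 6, 1 and 3 reads. The ratio of summed reads for Lif was 8.11 (1.15 to 352, counting error alone), with 1 read in the vehicle group. The intervals of this kind for Il12a, Osm, Il11, Il6, Csf2, Tnfsf11, Il12b and Il10 included 1. Together the 13 ligands under the filter had 87, 17 and 61 reads in the vehicle libraries and 31, 72 and 60 with VUF11207. As a summed level this is 3.22 CPM (exact Poisson 95% interval 2.58 to 3.97), 1.198 CPM (0.698 to 1.92) and 1.97 CPM (1.51 to 2.53) with vehicle, and 1.05 CPM (0.712 to 1.49), 2.42 CPM (1.89 to 3.04) and 2.03 CPM (1.55 to 2.61) with VUF11207. The groups overlapped.

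**Figure D1:**
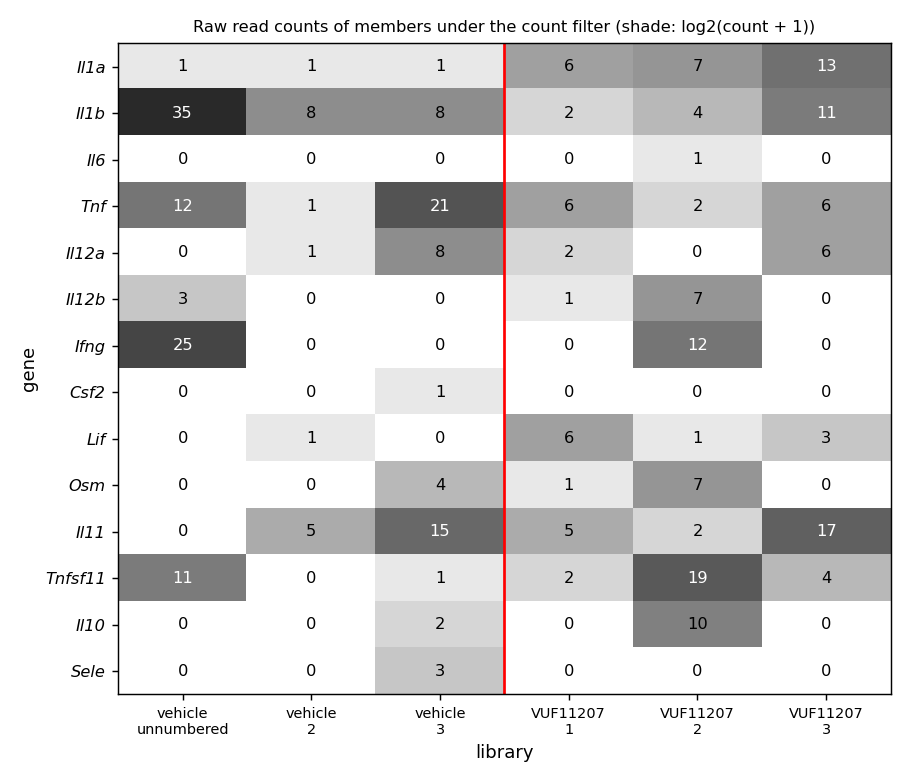
Raw read counts of the 14 genes under the count filter (rows) in the 3 vehicle and 3 VUF11207 libraries (columns), with darker cells for higher counts on a log2(count + 1) shade. Il1a has 1 read in each vehicle library and 6 to 13 with VUF11207, and Ifng reads lie in the unnumbered vehicle library and VUF11207 replicate 2.

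Of the 8 ligands tested, Il33 and Csf1 had the highest CPM. Il33, an alarmin stored in the nuclei of epithelial and stromal cells, was at 12.4, 5.42 and 11.0 CPM with vehicle and 8.01, 20.8 and 12.7 CPM with VUF11207, a log2 fold change of 0.52 ± 0.45 (SE). Csf1, the growth factor of macrophages, was at 10.5, 7.12 and 9.40 CPM with vehicle and 8.11, 10.7 and 6.09 CPM with VUF11207, a log2 fold change of -0.12 ± 0.31 (SE). Il33 was the 1 tested ligand with a positive fold change, and in both genes the groups overlapped. The 95% interval of Csf1 ran from -0.84 to 0.61, inside a 2-fold change either way.

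Il18, an interleukin-1 family cytokine that drives interferon production, had the widest spread among the ligands with reads in all 6 libraries. It was at 3.96, 0.634 and 0.646 CPM with vehicle and 0.169, 2.18 and 0.879 CPM with VUF11207, which is a 23.4-fold range over the libraries. Il1rn, the secreted antagonist of interleukin-1, had 30, 0 and 33 reads with vehicle and 11, 16 and 1 with VUF11207. Tnfsf13b, which encodes the B cell survival factor BAFF, was at 1.55, 0.564 and 0.355 CPM with vehicle and 0.304, 0.470 and 0.406 CPM with VUF11207. Log2 fold changes were -0.70 ± 1.10 for Il18, -1.23 ± 1.34 for Il1rn and -1.07 ± 0.76 for Tnfsf13b (SE). Il18 and Tnfsf13b were highest in the unnumbered vehicle library, and Il1rn was about as high there as in vehicle replicate 3 (1.11 and 1.07 CPM).

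Il23a, the subunit specific to interleukin-23, was at 0.481, 1.27 and 0.420 CPM with vehicle and 0.710, 0.302 and 0.203 CPM with VUF11207. Tslp, an epithelial cytokine of type 2 responses, was at 1.07, 1.198 and 0.743 against 0.473, 0.570 and 0.879 CPM. Csf3, the growth factor of neutrophils, was at 0.629, 0.282 and 0.517 against 0.845, 0.268 and 0.237 CPM. All 3 overlapped between groups, with log2 fold changes of -0.80 ± 0.81, -0.64 ± 0.57 and -0.10 ± 0.78 (SE).

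Among the 4 NF-kB subunit genes of the set, Nfkb1 and Nfkb2, which encode the precursors of p50 and p52, had the highest CPM. Nfkb1 was at 10.9, 23.5 and 27.4 CPM with vehicle and 28.5, 26.5 and 27.5 CPM with VUF11207. The 3 treated libraries lay close together and the unnumbered vehicle library was the lowest of the 6, and the log2 fold change was 0.42 ± 0.34 (SE). Nfkb2 was at 21.4, 13.0 and 18.4 CPM with vehicle and 15.1, 21.8 and 15.3 CPM with VUF11207, a log2 fold change of -0.02 ± 0.27 (SE). A long noncoding RNA is annotated on the opposite strand across the start of Nfkb2, and with the strand setting unknown the reads of the pair cannot be told apart.

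Relb, the partner of p52, was at 10.03, 5.21 and 5.33 CPM with vehicle and 5.21, 6.85 and 4.29 CPM with VUF11207. Rel, the subunit typical of lymphocytes, was at 1.92, 1.41 and 1.65 CPM with vehicle and 1.72, 0.940 and 1.12 CPM with VUF11207. Their log2 fold changes were -0.33 ± 0.38 and -0.40 ± 0.49 (SE), with overlap in both.

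Nfkbia encodes IkB-alpha, the inhibitor that NF-kB itself induces, and lies on chromosome 12 from 55489410 to 55492647 (mm10). It was at 54.9, 74.7 and 54.2 CPM with vehicle and 48.8, 52.2 and 38.7 CPM with VUF11207. All treated libraries were below all vehicle libraries, with a mean of 46.5 ± 6.99 CPM against 61.3 ± 11.6 CPM (SD, n = 3 each). The log2 fold change was -0.396 ± 0.217 (SE) with a 95% interval from -0.913 to 0.122, an unadjusted edgeR p of 0.113, the smallest of any member tested, and an adjusted p of 0.999913 by edgeR's quasi-likelihood test. The gap between the groups, 52.2 to 54.2 CPM, was smaller than the range within either group. Without vehicle replicate 2, the highest library, the log2 fold change was -0.22. Per library total that replicate was instead the lowest, with 1060 of its 33368058 counts.

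The other IkB family genes overlapped between the groups. Nfkbie, which encodes IkB-epsilon, was at 5.14, 2.04 and 2.68 CPM with vehicle and 1.66, 6.17 and 1.76 CPM with VUF11207. Nfkbiz, a nuclear IkB that co-activates secondary response genes, was at 10.1, 2.11 and 7.43 against 4.33, 5.97 and 3.38 CPM. Bcl3, another nuclear IkB, was at 4.40, 0.986 and 4.72 against 2.74, 4.09 and 2.81 CPM. Nfkbiz and Bcl3 were lowest in vehicle replicate 2, the library with least effective depth, and their log2 fold changes were -0.53 ± 0.58 and -0.08 ± 0.62 (SE).

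Of the feedback regulators among the targets, Zc3h12a also had no overlap. It encodes Regnase-1, an RNase that degrades cytokine transcripts, and lies on chromosome 4 from 125118423 to 125127840 (mm10). Zc3h12a was at 4.66, 5.495 and 8.76 CPM with vehicle and 4.36, 3.46 and 4.46 CPM with VUF11207. The lowest vehicle library (4.66) and the highest treated library (4.46) nearly met, the log2 fold change was -0.62 ± 0.36 (SE) and the unadjusted edgeR p was 0.129. Tnfaip3, the A20 ubiquitin-editing enzyme that shuts down the receptor complex, was at 4.48, 2.11 and 3.59 CPM with vehicle and 2.87, 4.33 and 2.81 CPM with VUF11207, a log2 fold change of -0.03 ± 0.44 (SE).

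Birc3 and Traf1 act in survival signalling at tumour necrosis factor receptors. Birc3 was at 55.1, 22.1 and 36.0 CPM with vehicle and 31.0, 47.4 and 48.4 CPM with VUF11207, a log2 fold change of 0.16 ± 0.36 (SE). Traf1, on chromosome 2 from 34941750 to 34961772 (mm10), was at 82.97, 18.5 and 4.01 CPM with vehicle and 6.42, 22.6 and 10.1 CPM with VUF11207. The unnumbered vehicle library alone set the direction of Traf1. The log2 fold change was -1.43 ± 1.03 (SE) over all libraries and 0.22 without that library.

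The adhesion molecules that capture leukocytes on vessel walls differed more within groups than between them. Icam1 was at 15.1, 4.51 and 5.62 CPM with vehicle and 3.72, 11.5 and 4.02 CPM with VUF11207. Vcam1 was at 14.6, 5.78 and 7.14 CPM with vehicle and 4.06, 12.2 and 5.51 CPM with VUF11207. Both were highest in the unnumbered vehicle library and next highest in VUF11207 replicate 2, where their level was more than 2 times that of either other treated library. Endothelial markers had mean levels of 0.90 and -0.58 on the log2 scale in those 2 libraries, so one was the highest and one the lowest of the 6. Sele, the endothelial selectin, had 3 reads in vehicle replicate 3 and 0 in the other 5 libraries.

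Sod2, the mitochondrial superoxide dismutase, was the steadiest member tested, at 101, 116 and 82.1 CPM with vehicle and 94.9, 90.6 and 94.3 CPM with VUF11207. Its log2 fold change was -0.09 ± 0.20 (SE) with a 95% interval from -0.57 to 0.38. Irf1, a transcription factor induced by interferon and NF-kB, was at 33.9, 15.8 and 29.3 CPM with vehicle and 24.5, 34.7 and 31.7 CPM with VUF11207, a log2 fold change of 0.20 ± 0.31 (SE). Tnfaip2, a gene induced by tumour necrosis factor, was at 3.18, 0.775 and 0.970 CPM with vehicle and 0.778, 1.38 and 0.575 CPM with VUF11207. Cd83, a marker of mature dendritic cells and activated lymphocytes, was at 3.77, 0.775 and 2.36 CPM with vehicle and 0.913, 3.69 and 1.25 CPM with VUF11207.

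Of the acute-phase genes, Lcn2 had a different order of libraries from the adhesion molecules and Saa3 the same top pair. Lcn2, which encodes the iron-sequestering lipocalin of epithelium and neutrophils, lies on chromosome 2 from 32384633 to 32388252 (mm10) and was at 9.66, 73.9 and 145 CPM with vehicle and 100.1, 28.8 and 38.8 CPM with VUF11207. It was lowest in the 2 libraries where Icam1 and Vcam1 were highest. Ltf, which encodes lactoferrin and was on the neutrophil list, was likewise lowest in those 2 libraries, at 2.22, 9.86 and 49.2 CPM with vehicle and 51.5, 3.69 and 11.4 CPM with VUF11207, while the defining neutrophil gene Ly6g had 0 reads in each library. Of the 10 neutrophil genes 3 passed the count filter. Of these, 2 (S100a8 and S100a9) had an unadjusted edgeR p under 0.05 toward lower values with VUF11207, beside 0.473% of all genes. Both were without overlap, beside 2.52% of all genes lower. Among the 7 under the filter, Retnlg had 8, 8 and 4 reads with vehicle and 0, 0 and 0 with VUF11207. Camp had 16, 13 and 4 against 1, 6 and 0 reads. Cxcr2 had 0, 6 and 1 against 0, 0 and 0, and Ngp 1, 10 and 5 against 8, 3 and 0. Mpo had 0, 3 and 7 against 4, 13 and 0, and Elane 1, 1 and 0 against 0, 7 and 0. S100a9 was at 8.03, 4.23 and 1.81 CPM with vehicle and 0.169, 0.973 and 0.0338 CPM with VUF11207, and so was highest where Lcn2 was lowest. The summed neutrophil list was at 15.2, 20.1 and 52.8 CPM with vehicle and 52.5, 6.07 and 11.7 CPM with VUF11207, and Ltf made up most of its highest sums. The mean centred log2 level of the 3 neutrophil genes tested was 0.85, 1.13 and 1.04 with vehicle and -0.40, -0.89 and -1.74 with VUF11207. The part of neutrophils in the Lcn2 values was not tested. Saa3, a serum amyloid gene, was at 0.777, 0.634 and 0.355 CPM with vehicle and 0.101, 1.58 and 0.0338 CPM with VUF11207, and how reads shared with related amyloid genes were counted is not given in the sources used here.

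**Figure D2:**
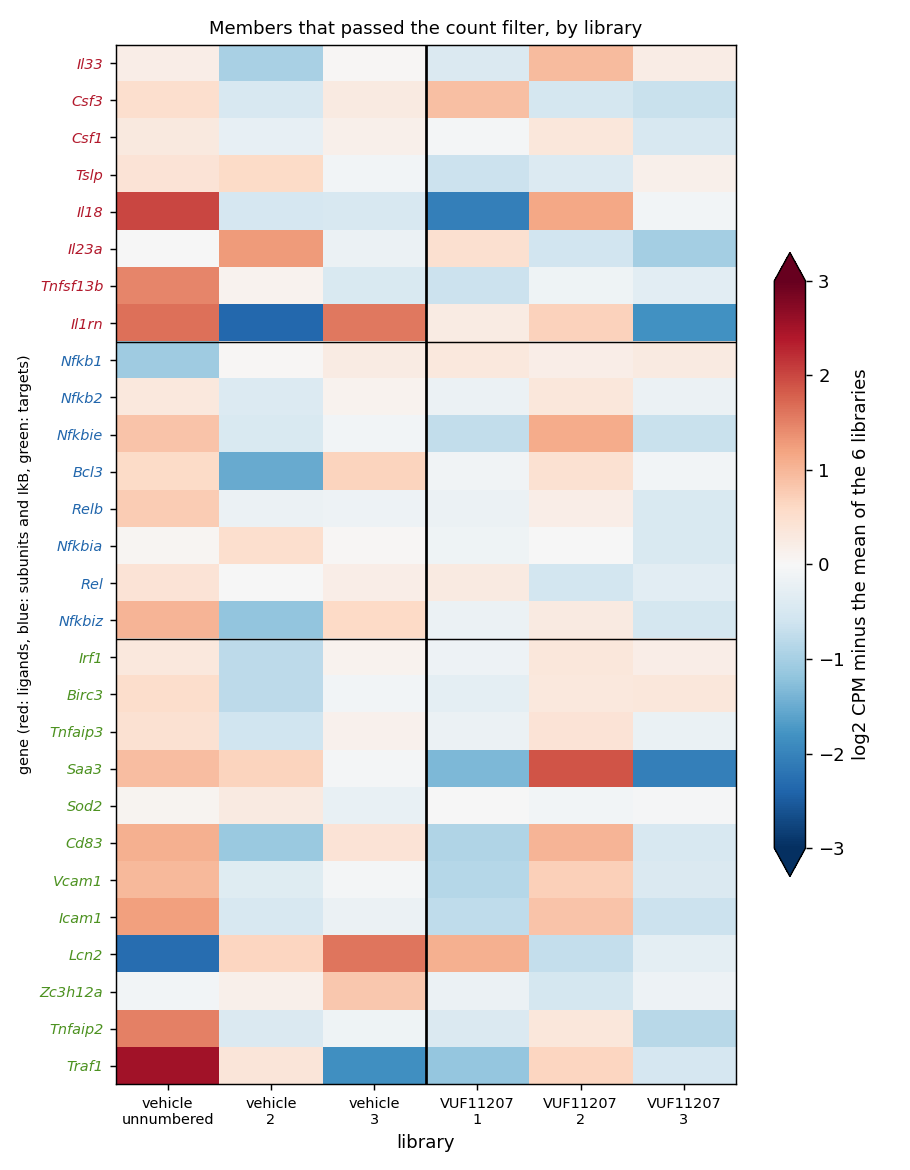
Log2 CPM of the 28 genes that passed the count filter, centred on each gene's mean (colour), with genes in rows by role and libraries in columns. The unnumbered vehicle library and VUF11207 replicate 2 are red for Icam1, Vcam1, Cd83 and Nfkbie, and blue for Lcn2.

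No difference of a member between VUF11207 and vehicle passed the test. By edgeR's quasi-likelihood test with Benjamini-Hochberg adjustment over 13753 genes, 0 of 28 members were called higher and 0 lower, beside 0% of all genes in each direction. At an unadjusted p under 0.05 there were 0 members with edgeR, 0 with DESeq2 and 0 with limma voom, beside 0.953% of all genes higher and 0.473% lower in edgeR, 2.27% in DESeq2 and 1.48% in limma voom. DESeq2 also called 0 members at an adjusted p under 0.05, beside 0.0293% of all genes. With library totals alone Traf1 reached an unadjusted edgeR p under 0.05, beside 137 of 13753 genes. Without vehicle replicate 3 Traf1 did so again, beside 685 of 14126 genes. Saa3 did so without VUF11207 replicate 2, beside 178 of 14082 genes. The wider of the 2 within-group ranges of log2 CPM exceeded the fold change for 28 of the 28 members. That share was not computed over all genes, so it has no background to be read against. For Il1rn the range has no bound, since vehicle replicate 2 had 0 reads. Groups did not overlap for 2 of 28 members, Nfkbia and Zc3h12a, both lower with VUF11207, beside 2.52% of all genes lower and 3.05% higher. Per library total, vehicle replicate 2 was the lowest library for both, so their lack of overlap rests on the TMM scaling.

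Of the 28 members 24 had a negative fold change, beside 55.3% of all genes tested, and 4 a positive one, beside 44.7%. The median log2 fold change was -0.67 over the 8 ligands and -0.29 over the 20 NF-kB genes, beside -0.04 over all genes. The negative members comprised 7 of 8 ligands, 7 of 8 subunits and IkB genes, and 10 of 12 targets. Nfkb1, Il33, Birc3 and Irf1 were the exceptions. This lean was lost without the unnumbered vehicle library. Without it 10 of 28 members were negative, and the medians were -0.10 for the ligands and 0.15 for the NF-kB genes. The ligand median was -0.41 without vehicle replicate 2. The NF-kB median was -0.04 without VUF11207 replicate 1, -0.12 without replicate 3, -0.50 without replicate 2 and -0.47 without vehicle replicate 2. Without VUF11207 replicates 1, 2 and 3 in turn, 18, 23 and 17 of 28 members were negative. Without vehicle replicates 2 and 3 in turn, 24 and 20 of 28 were. With both the unnumbered vehicle library and VUF11207 replicate 2 left out, 22 of 27 members were negative and the medians were -0.31 for ligands and -0.32 for NF-kB genes. Scaled by library totals alone, 19 of 28 members were negative, with medians of -0.36 and -0.18. Macrophage and monocyte markers were also negative, in 12 of 12 genes. Their summed level was 410 CPM in the unnumbered vehicle library, of which Lyz2 made up 215 CPM. The sum was 144 and 225 CPM in the other vehicle libraries and 131, 271 and 128 CPM with VUF11207. The part of these cells in the lean was not tested.

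The precision differed between the 2 classes of genes. The median standard error of the log2 fold change was 0.77 for the ligands tested and 0.51 for the NF-kB genes. A 95% interval inside a 2-fold change either way was reached by 5 of 28 members, Csf1, Nfkbia, Nfkb2, Irf1 and Sod2, beside 43.3% of all genes tested. For the other 23 members a change of 2-fold in at least one direction lay within the interval.

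**Figure D3:**
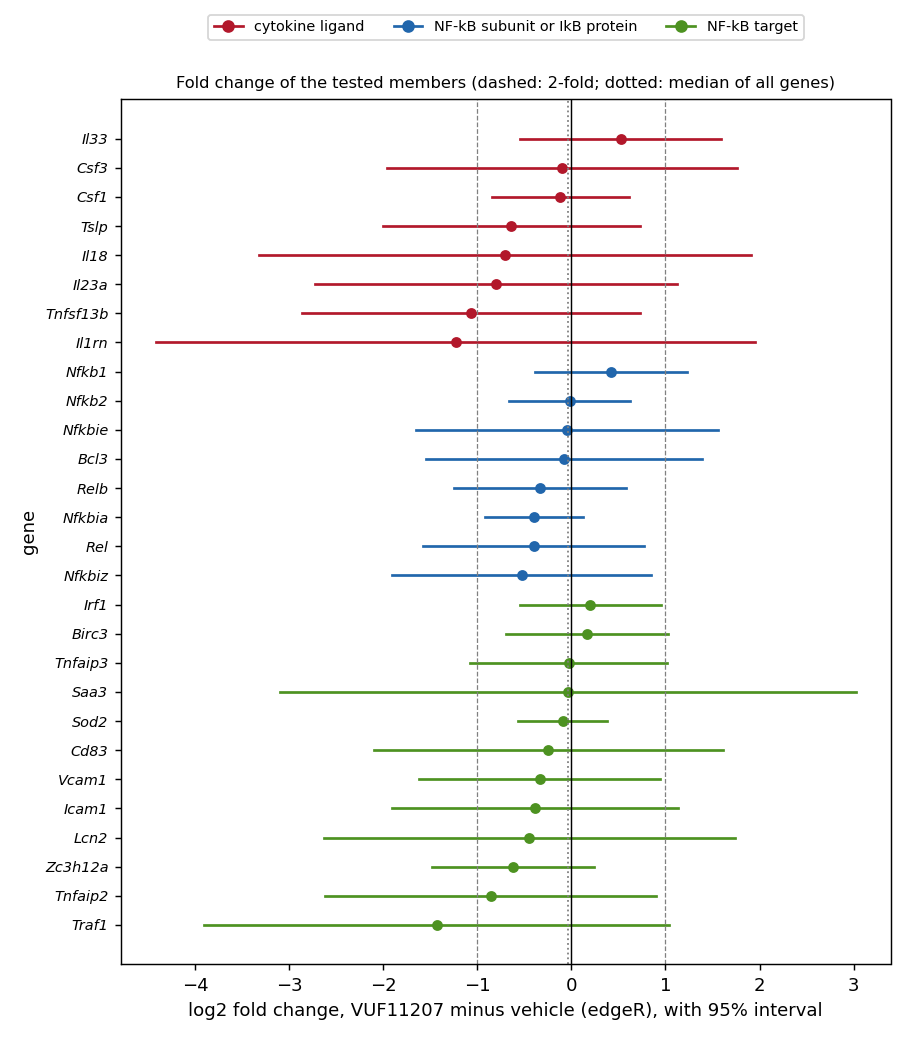
Log2 fold change (VUF11207 minus vehicle, edgeR) of the 28 genes tested with 95% intervals, coloured by role, with dashed lines at a 2-fold change and a dotted line at the median of all genes. Each interval crosses 0, and those of Saa3, Il1rn and Il18 are among the widest.

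Many target genes were highest in the same pair of libraries, one from each group. The unnumbered vehicle library had the highest value for 13 of 28 members (46.4%), beside 28.2% of all genes tested. The unnumbered vehicle library and VUF11207 replicate 2 were the 2 highest libraries for 13 of 28 members (46.4%), beside 20.1% of all genes. The 13 were 8 of the 12 targets (Cd83, Icam1, Irf1, Saa3, Tnfaip2, Tnfaip3, Traf1 and Vcam1), 3 of the 8 subunits and IkB genes (Nfkb2, Nfkbie and Relb) and 2 of the 8 ligands (Csf1 and Il18), so the share was 66.7% for targets and 25% for ligands. Nfkb1 and Lcn2 were instead lowest in the unnumbered vehicle library. These shares are descriptions of 6 libraries, since the genes share them.

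The mean level of the NF-kB genes, centred on each gene's mean log2 CPM, was 0.50, -0.29 and 0.10 with vehicle and -0.31, 0.36 and -0.37 with VUF11207. That of the 8 ligands was 0.81, -0.33 and 0.10 against -0.28, 0.19 and -0.50. T cell markers had levels of 1.11, -1.05 and 0.17 against -0.69, 1.22 and -0.76, and macrophage and monocyte markers 0.85, -0.37 and 0.21 against -0.56, 0.49 and -0.61. B cell and plasma cell markers were at 0.55, -1.43 and 1.27 against -1.87, 2.20 and -0.72. In the ligands, the NF-kB genes and these 3 marker lists alike, the libraries above the mean were the unnumbered vehicle library, vehicle replicate 3 and VUF11207 replicate 2. Red blood cell markers had the same 3 libraries above the mean, at 2.71, -0.81 and 1.08 against -1.60, 0.49 and -1.88, and 2 of their 5 tested genes had an unadjusted edgeR p under 0.05 toward lower values with VUF11207. Smooth muscle markers also peaked in the unnumbered vehicle library (0.87) and VUF11207 replicate 2 (1.24). Prostate epithelial markers were highest in the same 2 libraries, at 0.46 and 0.65, with VUF11207 replicate 3 next at 0.42. Seminal vesicle markers were lowest in these 2 libraries, at -3.08 and -3.34. The part of tissue composition, leukocytes, blood and gland tissue included, in the levels of the members was not tested.

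**Figure D4:**
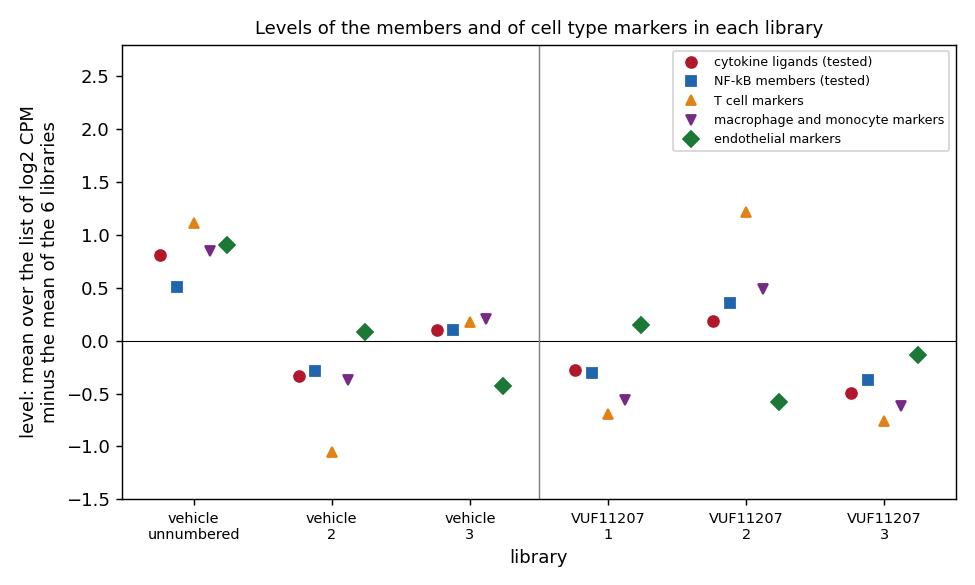
Mean level of the tested ligands, the tested NF-kB genes and 3 lists of cell type markers in each library, on the centred log2 CPM scale. The ligands, NF-kB genes, T cell markers and macrophage markers are above 0 in the unnumbered vehicle library, vehicle replicate 3 and VUF11207 replicate 2. Endothelial markers are above 0 in the unnumbered vehicle library (0.90) and below 0 in vehicle replicate 3 (-0.42) and VUF11207 replicate 2 (-0.58).

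Genes of the receptors and of the signalling chain were examined beside the members. Of 30 cytokine receptor genes 27 were tested, 16 with positive and 11 with negative fold changes, a median log2 fold change of 0.09 and 0 called in either direction by edgeR. The receptor genes with the smallest p in each direction were Il18r1 (log2 fold change 0.70 ± 0.43, SE) and Il1rap (0.41 ± 0.29), and Il17rc (-0.57 ± 0.40) and Ifngr1 (-0.59 ± 0.47). Il18r1, which binds interleukin-18, was at 3.29, 1.48 and 2.71 CPM with vehicle and 4.09, 3.69 and 4.43 CPM with VUF11207. It was the 1 of 27 receptor genes tested without overlap, beside 3.05% of all genes higher and 2.52% lower. Il17rc and Ifngr1 were highest in the unnumbered vehicle library, at 66.0 and 70.3 CPM against at most 29.0 and 38.4 CPM elsewhere, and without that library their values were 0.02 and 0.06.

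All 37 genes of the signalling chain were tested. They include receptors, adaptors, kinases, enzymes that add or remove ubiquitin, inhibitors and the subunit Rela. Their fold changes were positive for 12 and negative for 25, with a median of -0.13 and 0 called. Tnip1, which binds A20 and restrains NF-kB, and Ticam1, a Toll-like receptor adaptor, had log2 fold changes of 0.41 ± 0.20 and 0.31 ± 0.26 (SE). Birc2 and Traf2, ubiquitin ligases at the tumour necrosis factor receptor, were at -0.40 ± 0.26 and -0.47 ± 0.31. The level of this list varied little, from -0.14 to 0.12 over the libraries, beside -0.37 to 0.50 for the NF-kB members. Of the 10 genes of inflammasomes and interleukin-1 processing 8 were tested, 7 of them negative with a median of -0.34 and 0 called. Within that list Pycard, the inflammasome adaptor, was at 0.11 ± 0.46, Sigirr, a negative regulator of interleukin-1 receptor signalling, at -0.31 ± 0.25 and Casp4, an inflammatory caspase, at -0.71 ± 0.82.

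Levels were compared between members per kilobase of annotated exon. Nfkbia had the highest mean level over the 6 libraries at 33.5 CPM per kilobase, followed by Lcn2 at 25.2, Sod2 at 9.64, Birc3 at 7.99 and Irf1 at 7.12. Lcn2 ranged from 3.68 to 55.3 CPM per kilobase and thus overlapped each of its neighbours in this order. Il33 at 4.06, Csf1 at 1.64 and Il18 at 1.37 CPM per kilobase were the 3 most abundant ligands. Il1b and Tnf were at 0.235 and 0.169 CPM per kilobase. Il6 and Csf2, with 1 read each, and Sele, with 3, were too low to be ordered.

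**Figure D5:**
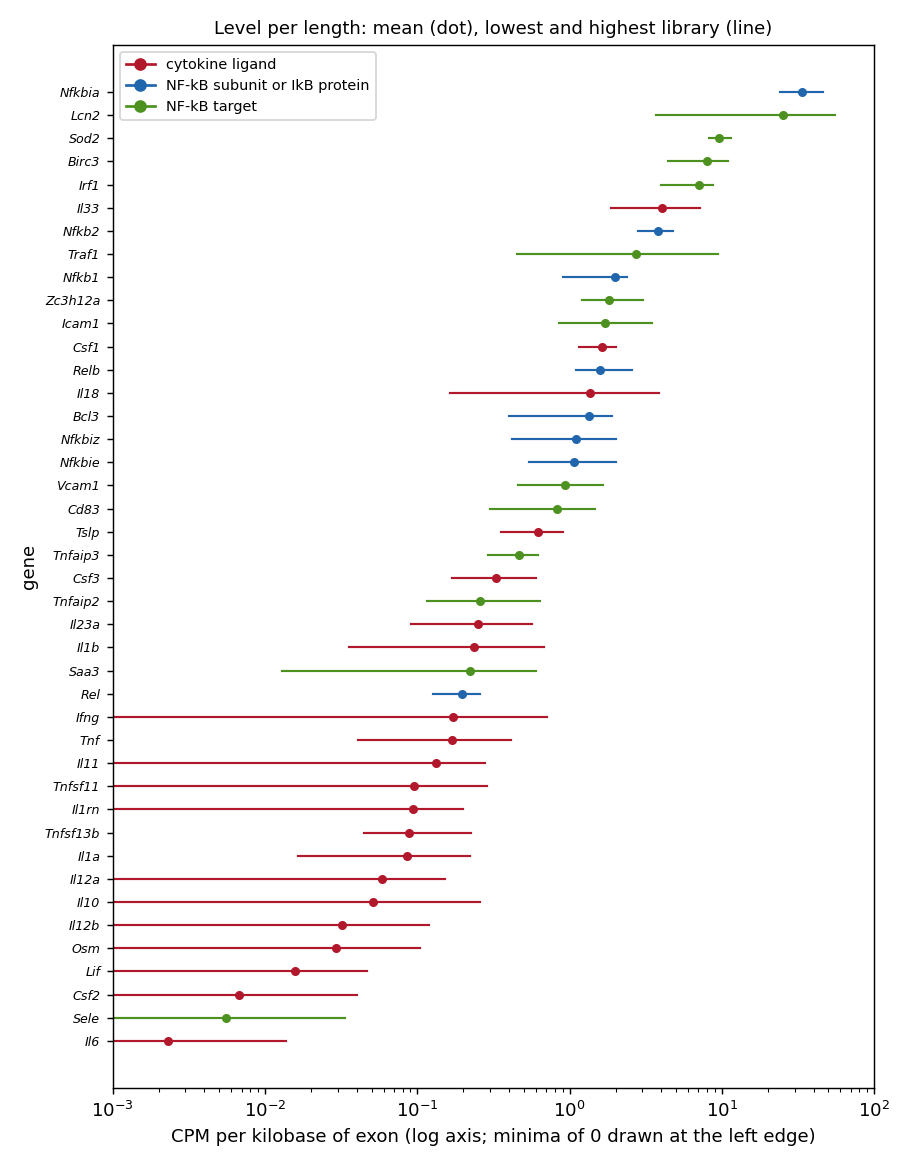
Level of the 42 genes per kilobase of exon (log axis, CPM per kilobase), as the mean over 6 libraries with a line from the lowest to the highest library. NF-kB subunits, inhibitors and targets fill most of the upper places, and ligands fill most of the lower ones, with Il33, Csf1 and Il18 as the highest ligands.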

How the data were processed

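The authors deposited a table of raw counts, whole reads assigned to each gene symbol. The submitters' processing notes name HISAT2, HTSeq, fastp and the mm10 build. The sources used here give no versions, annotation or strand setting. Total RNA was extracted with TRIzol, per the labels' protocols. The 5 separate files were identical to the table's columns. Groups came from the labels, and 1 vehicle column carried no usable replicate number.

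Counts were filtered with filterByExpr, scaled by TMM and compared by edgeR 4.0.16's quasi-likelihood test (robust, two-sided) in R 4.3.3, with Benjamini-Hochberg adjustment over 13753 genes and a threshold of 0.05. The standard error was the absolute log2 fold change over the root of F. Log2 CPM used a prior count of 2. An exact permutation test cannot go below 0.1 with 3 against 3, so none was run. The fit was tested on simulated data. Alternatives used DESeq2 1.42.0, limma 3.58.1 voom, other scaling and filters, a replicate block, and each library left out. Positions and exon lengths are from GENCODE M21. Over all genes the median log2 fold change was -0.04, and 0.14 when scaled by library totals only.

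Members and lists were chosen with earlier results of these data known. Each ligand and each NF-kB gene with a mean of at least 1 CPM is given per library, and for each pathway list the 2 genes with the smallest p in each direction. Levels of Il17a were not analysed here.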

Additional observations from a re-analysis of the deposited data

How the results depend on the processing

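No member was called under any of the 16 alternatives. Of all genes, DESeq2 called 4 and scaling by library totals alone called 3, and the other alternatives called 0. The cause of these differences was not tested. The ligand median of -0.67 moved to -0.12 with CPM of at least 1 required in 3 libraries, where 3 ligands remained tested. With 1 library left out it ran from -0.83 to -0.10, and the NF-kB median from -0.50 to 0.15.

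Deviations from the group means correlated at -0.33 and 0.05 between the groups for replicates 2 and 3. For the unnumbered vehicle library and VUF11207 replicate 1, which share a column number as the other pairs do, the value was -0.59. These values cannot show whether libraries were paired, since deviations from a mean of 3 libraries depend on one another. With a replicate block over replicates 2 and 3 (4 libraries), 0 genes were called and the medians were -0.022 for the ligands and 0.20 for the NF-kB genes. Of 27 members 11 were negative. That block reversed Il18 (1.11), Nfkbie (0.50), Nfkbiz (0.16), Nfkb2 (0.25), Relb (0.050), Tnfaip3 (0.34), Tnfaip2 (0.040), Traf1 (0.81), Icam1 (0.44), Vcam1 (0.36), Bcl3 (0.60), Cd83 (0.62), Il17rc (0.14), Ifngr1 (0.12), Pycard (-0.042) and Casp4 (0.81). Under it 2 of 27 members, Birc3 and Lcn2, had an unadjusted edgeR p under 0.05, beside 834 of 13770 genes. It leaves out the unnumbered vehicle library and VUF11207 replicate 1.

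Of 440 log2 fold changes of members under alternatives 58 changed sign, and 9 of 28 members never did: Il23a, Il33, Tslp, Tnfsf13b, Il1rn, Nfkbia, Nfkb1, Rel and Zc3h12a. Library totals alone gave Nfkbie 0.047, Nfkb2 0.081, Tnfaip3 0.030, Sod2 0.15 and Saa3 0.28. Scaling without the 50 most abundant genes gave Nfkb2 0.016 and Tnfaip3 0.0050. Limma voom gave Lcn2 0.052. A block by column number, chosen after seeing the data, gave Bcl3 0.12. Leaving out both the unnumbered vehicle library and VUF11207 replicate 2, also chosen after seeing the data, gave Csf3 0.40 and Pycard -0.21, with medians of -0.31 for ligands and -0.32 for NF-kB genes and 22 of 27 members negative. The causes were not tested.

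With 1 library left out, values that changed sign ran from -0.50 to 0.25 (Bcl3), -0.10 to 0.54 (Birc3), -1.29 to 0.52 (Casp4), -1.09 to 0.30 (Cd83), -0.34 to 0.065 (Csf1), -0.88 to 0.21 (Csf3), -1.11 to 0.34 (Icam1), -0.93 to 0.060 (Ifngr1), -0.82 to 0.024 (Il17rc), -1.73 to 0.75 (Il18), -0.049 to 0.43 (Irf1), -1.16 to 0.42 (Lcn2), -0.21 to 0.15 (Nfkb2), -0.94 to 0.43 (Nfkbie), -0.24 to 0.64 (Pycard), -0.53 to 0.049 (Relb), -3.03 to 0.51 (Saa3), -0.21 to 0.037 (Sod2), -1.28 to 0.055 (Tnfaip2), -0.26 to 0.22 (Tnfaip3), -2.08 to 0.22 (Traf1) and -0.94 to 0.17 (Vcam1). Without the count filter, Il1a ran from 2.20 to 2.95. Of 21 ligands 13 fell under the count filter and were not tested in the main comparison.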
